A study of Mus musculus with 7 samples.

Results

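Border-associated macrophages are the resident macrophages of the meninges, the perivascular spaces and the choroid plexus, and they sit at the edge of the brain tissue in which microglia live. They take up material from fluid and blood through scavenger receptors and lectins, and they are told apart from microglia by the genes Mrc1, Cd163, Lyve1, F13a1, Pf4, Cbr2, Folr2, Cd209b, Cd209f and Stab1. The 10 genes were chosen by these symbols from the 50686 gene identifiers in the data, as a group and with earlier results of these data known. All 10 passed the filter on low counts, as did 17559 genes in all. Stab1 and Folr2 are also read in other macrophages, F13a1 in monocytes and Pf4 in platelets, so no single gene of the set defines these cells.

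The RNA came from male C57BL/6 mice 4 days after transient occlusion of the middle cerebral artery, a model of ischemic stroke. The young group had 4 libraries from mice of 3 to 4 months (14C, 18C, 23C and 29C) and the old group had 3 libraries from mice of 21 to 22 months (2posI, 3posI and 4posI), each labelled with 1 animal code. The labels name no drug treatment, and per the study's methods the operated mice had isoflurane anesthesia and buprenorphine for pain. Microglia were sorted by flow cytometry on CD11b and CD45 and on Bodipy, a dye for neutral lipid, so every library holds Bodipy+ cells and there was no uninjured or Bodipy- control. All 7 libraries thus share the ischemia, the sex and the sort. The animal codes differ in form between the ages, ending in C for young and in posI for old mice, and anything that these endings mark cannot be told apart from age. The comparison asks how the level of these genes differed between old and young mice. In a bulk library, fewer cells of a type and less RNA per cell cannot be told apart.

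Total expected counts, the read numbers that RSEM assigns to genes, ran from 36574083 to 53002386 per library. The sorted cells carried microglial RNA in every library, with a summed level of 12 microglial markers (P2ry12, Tmem119, Sall1 and others) between 6288 and 20983 TPM, a measure of transcript abundance that is corrected for gene length and sums to the same total in each library. The old library 3posI stood apart. It had the lowest sum of microglial markers, 6288 TPM against 13900 or more in the other 6 libraries, and it was the lowest library for 10 of the 12. It had the highest sum of 12 monocyte markers (Ly6c2, Ccr2, Chil3 and others), 3558 TPM against 88.6 to 309 TPM in the others, and it was the highest library for 12 of the 12. Without 3posI, the median log2 fold change of the monocyte markers was 0.88 instead of 3.69, and 10 of the 12 were still above 0. The fold change of each of the 10 genes is therefore given with and without 3posI.

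The regulatory sequence just before the start of 4 of the genes is shown because they form the 2 patterns of the data: Pf4 and F13a1, which were highest in 3posI, and Cd209f and Cd209b, which had the largest fitted differences between the ages. The windows come from RefSeq on GRCm38.p6, are written 5′ to 3′ on the strand of the gene and leave out bases inside the gene's own span. Pf4 is at chr5:90772185-90772434 on the plus strand. F13a1 is at chr13:37050245-37050494, Cd209f at chr8:4105836-4106014 and Cd209b at chr8:3926845-3927091, all on the minus strand. Capitals mark GAGGAA on either strand, the core letters bound by PU.1, a factor that macrophages and microglia need.
Pf4: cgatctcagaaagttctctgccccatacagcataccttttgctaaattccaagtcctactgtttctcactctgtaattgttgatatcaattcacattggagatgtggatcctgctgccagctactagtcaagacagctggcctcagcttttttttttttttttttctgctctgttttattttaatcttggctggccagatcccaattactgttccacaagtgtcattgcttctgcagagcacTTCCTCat
F13a1: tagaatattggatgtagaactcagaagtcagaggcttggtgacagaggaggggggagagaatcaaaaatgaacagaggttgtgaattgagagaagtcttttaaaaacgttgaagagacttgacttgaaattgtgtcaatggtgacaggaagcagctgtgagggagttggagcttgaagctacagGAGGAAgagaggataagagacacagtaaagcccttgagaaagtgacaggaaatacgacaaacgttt
Cd209f: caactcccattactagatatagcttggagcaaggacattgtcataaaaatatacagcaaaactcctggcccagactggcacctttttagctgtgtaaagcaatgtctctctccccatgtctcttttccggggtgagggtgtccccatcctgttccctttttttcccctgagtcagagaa
Cd209b: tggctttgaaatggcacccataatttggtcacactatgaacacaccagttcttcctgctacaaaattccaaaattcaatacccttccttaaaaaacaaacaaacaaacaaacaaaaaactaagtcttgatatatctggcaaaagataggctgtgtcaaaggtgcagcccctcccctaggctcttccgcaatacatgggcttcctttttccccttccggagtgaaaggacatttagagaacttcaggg
Pf4 and F13a1 each held the letters 1 time, Pf4 on the opposite strand as TTCCTC, and the Cd209f and Cd209b windows did not hold them. Over the full windows of 250 bases, 9 of the 10 genes had an entry and GAGGAA was found in 5 of these 9 (Mrc1, F13a1, Pf4, Cbr2 and Stab1), against 23.3% of 32851 promoter windows. TATAAA was in Cd209f (12.4% of all windows), inside the annotated gene span and so not in the stretch printed. TGCTGA, the letters of a MAF half-site (16.1% of all windows), was in Folr2 and Stab1. AGATAA, the GATA letters (9.99% of all windows), and CACGTG, the E-box (6.02%), were in none of the 9. A match of letters in a window is a description and not a bound site.

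No gene of the set passed the threshold. Of the 10 genes, 0 had an adjusted p under 0.05 in edgeR's quasi-likelihood test across all genes, where 141 of 17559 genes (0.803%) were called. Limma-voom also called 0 of the 10, against 0.814% of all genes, and DESeq2 called 1, Cd209f, against 7.99% of all genes. At an unadjusted p under 0.05, 2 of the 10 (Cd209f and Cd209b) were higher in old mice, against 10.1% of all genes. The fitted change was above 0 for 9 of the 10 genes, with a median log2 fold change of 0.93 against -0.01 over all genes tested. Without 3posI the change was above 0 for 7 of the 10 and the median was 0.24. The genes were picked as a group with earlier results of these data known, so these counts are descriptions.

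**Figure D1:**
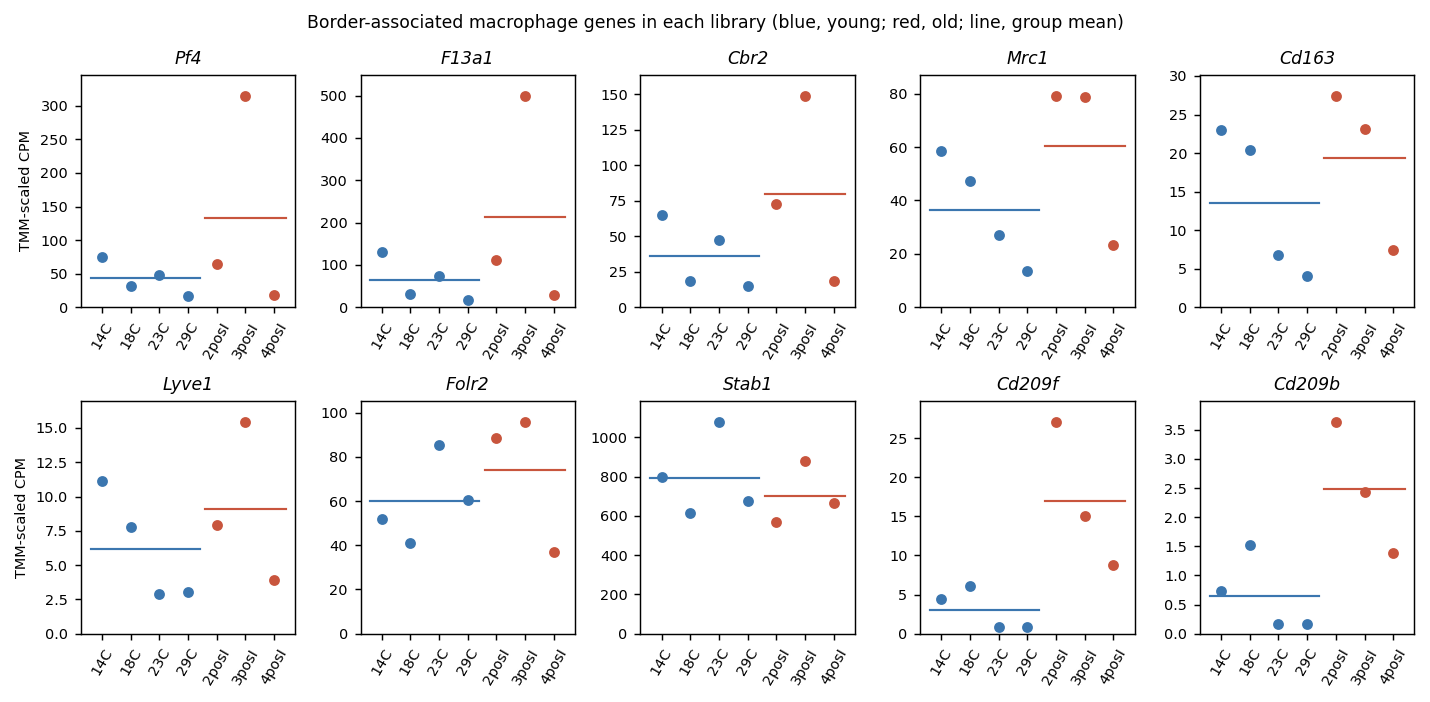
TMM-scaled CPM (reads of a gene relative to the library's scaled total, linear axes from 0) of each of the 10 genes in the 4 young (blue) and 3 old (red) libraries, with a line at each group mean. Pf4, F13a1 and Cbr2 are highest in 3posI, while all 3 old points of Cd209f lie above all 4 young ones.

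The level of the genes differed widely. On the TPM scale, averaged over all 7 libraries, Stab1 was highest with 484 ± 106 (SD, n = 7), followed by Pf4 with 205 ± 257, Folr2 with 91.2 ± 29.9, Cbr2 with 75.97 ± 59.9 and F13a1 with 43.6 ± 56.0. Mrc1 had 11.98 ± 6.32 TPM, Cd209f 9.84 ± 9.51, Cd163 5.38 ± 3.02, Lyve1 3.94 ± 2.35 and Cd209b 1.21 ± 0.911. The ranges of all neighbours in this order overlapped, although Cbr2 lay above F13a1 and Lyve1 above Cd209b in each of the 7 libraries.

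The lectins Cd209f and Cd209b had the largest fitted differences. Both encode C-type lectins related to DC-SIGN that bind sugars on microbes, and both lie on chromosome 8 in a cluster of such genes (Cd209b, ENSMUSG00000065987, chr8:3917655-3926844, and Cd209f, ENSMUSG00000051906, chr8:4102787-4105835, both on the minus strand of GRCm38). In CPM, the reads of a gene relative to the library's total after TMM scaling, Cd209f had 4.46 in 14C, 6.15 in 18C, 0.843 in 23C and 0.860 in 29C among young mice, and 27.1 in 2posI, 15.1 in 3posI and 8.83 in 4posI among old mice. All old libraries lay above all young ones, and the highest was not 3posI. The log2 fold change of old against young was 2.46 ± 0.72 (SE), a 5.52-fold higher level, with an adjusted p of 0.133 in edgeR (unadjusted p 0.00833). Without 3posI it was 2.54 with an adjusted p of 0.157 in edgeR. DESeq2 gave an adjusted p of 0.00539, and the two-sided exact permutation test of log2 CPM, which cannot go below 0.0286 with 3 against 4 libraries, gave 0.0571.

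Cd209b was the least abundant gene of the set, with 34, 68, 8 and 8 reads in 14C, 18C, 23C and 29C and 122, 95 and 64 reads in 2posI, 3posI and 4posI. Its CPM was 0.736, 1.52, 0.157 and 0.172 in the young libraries in that order and 3.64, 2.43 and 1.38 in the old ones. The lowest old library (4posI) lay under the highest young one (18C) in CPM, whereas on the TPM scale the groups did not overlap, with 1.5 as the lowest old and 1.37 as the highest young value. Old exceeded young by a log2 fold change of 1.94 ± 0.77 (SE), with an adjusted p of 0.223 in edgeR (unadjusted p 0.0341). Without 3posI it was 1.95 with an adjusted p of 0.288 in edgeR, and the exact permutation test with all libraries gave 0.0857. The old libraries were all above the young ones for 1 of the 10 genes in CPM, against 8.67% of all genes, and for 2 of the 10 in TPM, against 6.26%.

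The other genes of the Cd209 cluster had the same direction, and the counts given here for the cluster include Cd209f and Cd209b. Of its 7 genes, Cd209a to Cd209g, 6 passed the filter (Cd209c did not), and for 5 of these 6 all old libraries lay above all young ones in CPM, which held for 8.67% of all genes. Cd209d and Cd209e passed through the old libraries alone, with at most 4 and 6 reads in a young one, so they had to differ and the count is no support. The summed level of the 7 genes was 1.86 to 11.99 TPM in young and 20.9 to 47.2 TPM in old libraries, which do not overlap. Of this sum, Cd209f alone had 0.9 to 7.45 TPM in young and 10.7 to 27.8 TPM in old libraries. None of the 6 was called by edgeR. Its adjusted p was 0.0790 for Cd209g, 0.0979 for Cd209a, 0.101 for Cd209d and 0.132 for Cd209e, beside those given for Cd209f and Cd209b. All 6 were higher at an unadjusted p under 0.05 in edgeR, against 10.1% of all genes. Cd209d and Cd209e are among them, so this count is no support either. Limma-voom called 1 of the 6, Cd209a, at an adjusted p of 0.0489, against 0.814% of all genes. DESeq2 called 5 of the 6, all but Cd209b at 0.0865, against 7.99% of all genes. Cd209d and Cd209e are among these 5.

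Cd209a, the lectin gene of the cluster that dendritic cells express, had 0.823, 1.48, 0.196 and 0.0860 CPM in 14C, 18C, 23C and 29C, and 6.85, 5.09 and 4.49 CPM in 2posI, 3posI and 4posI. Its log2 fold change was 3.08 by edgeR. Cd209g had 0.671, 1.12, 0.235 and 0.559 CPM in the young libraries and 6.88, 3.09 and 1.90 CPM in the old ones, with a log2 fold change of 2.61. The median log2 fold change over the 6 genes was 2.85 with all libraries and 2.95 without 3posI. It includes Cd209d and Cd209e, which passed the filter through the old libraries alone. Other dendritic cell markers went both ways. Of the 10 markers on that list, Cd209a among them, 5 were above 0 and 5 below, and 0 were called. An unadjusted p under 0.05 in edgeR was found for 5 (4 higher and 1 lower), against 18.9% of all genes in either direction. Of the 4 higher ones, 1 had at most 8 reads in a young library and passed the filter through the old libraries alone. All old libraries lay above all young ones in CPM for 3 (Cd209a, Ccr7 and Siglecg), against 8.67% of all genes. In TPM the ages of Siglecg met at 0.63, its highest young and lowest old value. Ccr7, the receptor that guides dendritic cells to lymph nodes, had 0.30 to 0.93 TPM in young and 2.10 to 29.5 TPM in old libraries, the highest in 3posI, with a log2 fold change of 4.14 and of 1.72 without 3posI. The list summed to 61.6 to 154 TPM in young and 69.2 to 114 TPM in old libraries, most of it Fscn1 with a mean of 85.0 TPM and a log2 fold change of -0.73. The part of these cells in the Cd209 values was not tested.

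**Figure D2:**
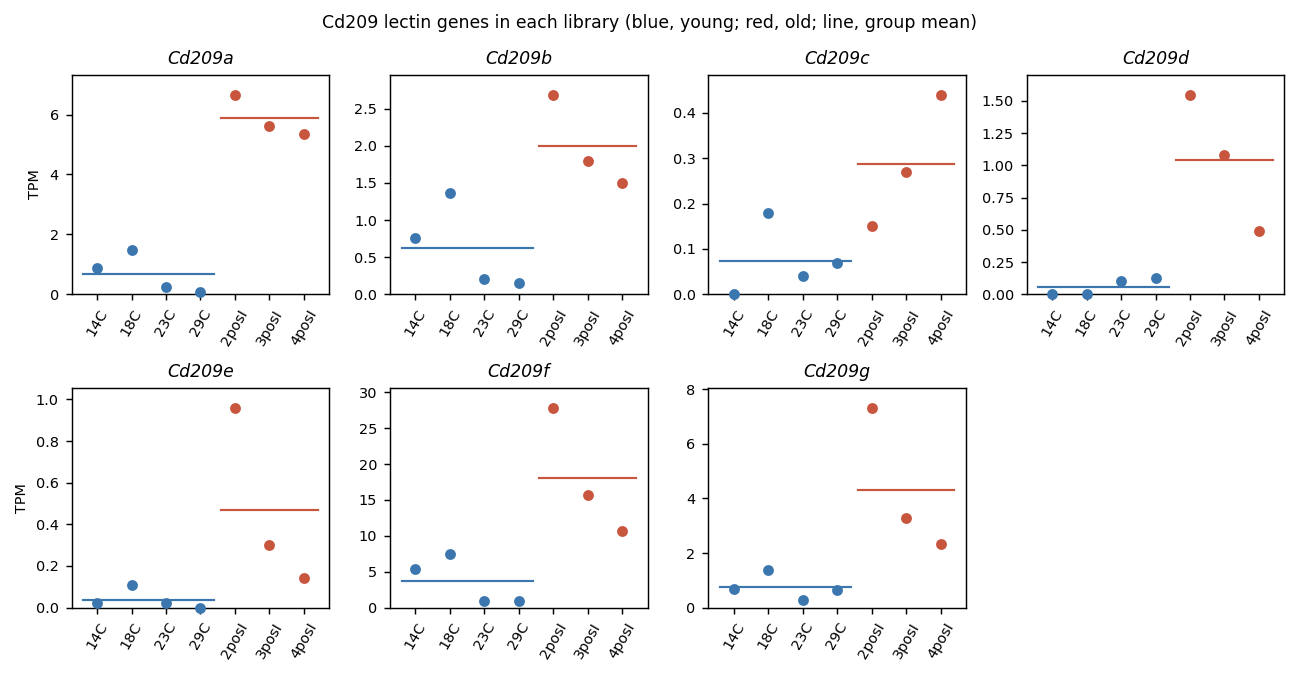
TPM (linear axes from 0, each panel with its own scale) of the 7 genes of the Cd209 cluster in young (blue) and old (red) libraries, with a line at each group mean. For each gene but Cd209c, the old points lie above the young points, and Cd209c and Cd209e stay under 1 TPM in every library.

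Reads of Cd209f and Cd209g were divided between the genes by RSEM. The expected counts of each were fractional in all 7 libraries, while their sum was a whole number (within 0.005) in 7 of 7, with Cd209f holding 60.6% to 86.8% of the sum. Their separate levels are therefore uncertain. Counted as 1 gene, a choice made after seeing the data, the pair had a log2 fold change of 2.49 ± 0.67 (SE) at an edgeR adjusted p of 0.118, and old and young libraries did not overlap. Cd209b had whole counts in all 7 libraries.

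The secreted proteins F13a1 and Pf4 followed 3posI. F13a1 encodes the A chain of coagulation factor XIII, which cross-links fibrin, and lies at chr13:36867178-37050244 on the minus strand (ENSMUSG00000039109). It had 132, 31.8, 73.0 and 16.9 CPM in 14C, 18C, 23C and 29C, and 111, 499.8 and 29.6 CPM in 2posI, 3posI and 4posI. The value in 3posI was 3.79 times the next highest, that of the young library 14C, and the other old libraries lay within the young range. The log2 fold change was 1.75 ± 0.91 (SE) with an adjusted p of 0.338 in edgeR, and 0.15 with an adjusted p of 0.945 in edgeR without 3posI. F13a1 shares 74 exon bases with Gm30489 on the other strand, and the libraries do not keep strand.

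Pf4, platelet factor 4, encodes the chemokine CXCL4 and lies at chr5:90772435-90773383 on the plus strand (ENSMUSG00000029373). It had 75.2, 32.3, 48.7 and 17.2 CPM in the young libraries in the same order, and 64.8, 315 and 18.5 CPM in 2posI, 3posI and 4posI. 3posI was 4.19 times the next highest library, again 14C. The log2 fold change was 1.61 ± 0.82 (SE) with an adjusted p of 0.329 in edgeR, and it turned to -0.06 with an adjusted p of 0.971 in edgeR without 3posI. The 10 platelet markers (Ppbp, Gp9, Itga2b and others) summed to 8.23 to 21.9 TPM in young and 6.22 to 15.3 TPM in old libraries, most of it Gp9 with a mean of 9.02 TPM. Ppbp, the platelet chemokine gene next to Pf4, was highest in 3posI with 1.04 TPM and had 0.03 to 0.61 TPM in the other libraries. The part of platelets in the Pf4 values was not tested.

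Cbr2, a carbonyl reductase, lies at chr11:120729489-120732114 on the minus strand (ENSMUSG00000025150). It had 64.7, 18.5, 47.5 and 14.7 CPM in the young and 72.9, 149 and 18.3 CPM in the old libraries, so that 3posI was 2.04 times the next highest library, 2posI. Between the ages the log2 fold change was 1.14 ± 0.69 (SE) with an adjusted p of 0.405 in edgeR, and 0.33 without 3posI. For F13a1, Pf4 and Cbr2 the order of the other 6 libraries was alike at its low end, with 29C lowest and 4posI next. The monocyte markers were highest in 3posI too, and their part in the values of F13a1, Pf4 and Cbr2 was not tested.

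The receptors Mrc1, Cd163 and Lyve1 varied more within an age than between ages. Mrc1, the mannose receptor CD206 (ENSMUSG00000026712, chr2:14229392-14332057, plus strand), had 58.3, 47.1, 27.0 and 13.8 CPM in 14C, 18C, 23C and 29C, and 79.2, 78.8 and 23.3 CPM in 2posI, 3posI and 4posI. The 2 highest libraries were old, but 4posI was lower than 3 of the 4 young ones. Its log2 fold change was 0.73 ± 0.53 (SE) with an adjusted p of 0.488 in edgeR, and 0.49 without 3posI.

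Cd163, the receptor for hemoglobin bound to haptoglobin (ENSMUSG00000008845, chr6:124304656-124330527, plus strand), had 23.0, 20.4, 6.77 and 4.06 CPM in the young libraries and 27.4, 23.2 and 7.38 CPM in the old ones. The order of the 7 libraries was close to that of Mrc1, with 2posI and 3posI highest and 29C lowest. Old against young, the log2 fold change was 0.51 ± 0.63 (SE) with an adjusted p of 0.701 in edgeR, and 0.36 without 3posI. Lyve1, a hyaluronan receptor also made by lymphatic vessels (ENSMUSG00000030787, chr7:110850607-110863239, minus strand), had 11.1, 7.81, 2.86 and 3.05 CPM in the young libraries and 7.90, 15.4 and 3.91 CPM in the old ones. Its log2 fold change was 0.55 ± 0.58 (SE) with an adjusted p of 0.644 in edgeR, and turned to -0.07 without 3posI. Of 8 markers of lymphatic endothelium, 5 were tested and 4 of them had a fitted change below 0, with Prox1 at -0.68, Flt4 at -0.84 and Tie1 at -1.35 on the log2 scale. None of the 5 was called by edgeR or had an unadjusted p under 0.05, and Mmrn1 was at 0 in all 7 libraries. Their sum was 5.22 to 16.9 TPM in young and 6.25 to 66.4 TPM in old libraries, the highest being 3posI, where Pdpn alone had 64.3 TPM. The part of lymphatic vessels in the Lyve1 values was not tested.

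Folr2 and Stab1 had the narrowest spread, with a highest library 2.59 and 1.89 times the lowest in CPM, against 5.39 times or more for the other 8 genes. Folr2, a receptor for folate (ENSMUSG00000032725, chr7:101839988-101857194, minus strand), had 51.9, 41.2, 85.5 and 60.6 CPM in 14C, 18C, 23C and 29C, and 88.6, 95.8 and 37.0 CPM in 2posI, 3posI and 4posI. The lowest and the highest of the 7 values were both from old mice. Its fitted log2 fold change was 0.30 ± 0.34 (SE) with an adjusted p of 0.670 in edgeR, and 0.07 without 3posI. Folr2 shares 975 exon bases with Gm10602 on the other strand and took 97.3% to 99.3% of the expected counts of the pair. The sum of this pair was a whole number in 0 of 7 libraries.

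Stab1, the scavenger receptor stabilin-1 (ENSMUSG00000042286, chr14:31139013-31168641, minus strand), was the only gene of the set with a fitted change below 0. It had 798, 615, 1078 and 676 CPM in the young and 569, 877 and 663 CPM in the old libraries. In the fit its log2 fold change was -0.17 ± 0.23 (SE) with an adjusted p of 0.733 in edgeR, and -0.36 without 3posI. Its sign depended on how length was treated: the fold change was 0.13 with RSEM's effective length as an offset and 0.07 on log2(TPM + 1). The effective length of Stab1, the mean usable length over its transcripts weighted by their estimated share, was 2215 to 2416 bases in young and 1682 to 1982 bases in old libraries, which do not overlap. Stab1 has 13 annotated transcripts of 242 to 7999 bases, of which 9 are retained introns, and the cause of the shift in length was not tested. It shares 112 exon bases with Nt5dc2 on the other strand and took 96.6% to 98.0% of the expected counts of the pair. The sum of this pair was a whole number in 7 of 7 libraries.

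**Figure D3:**
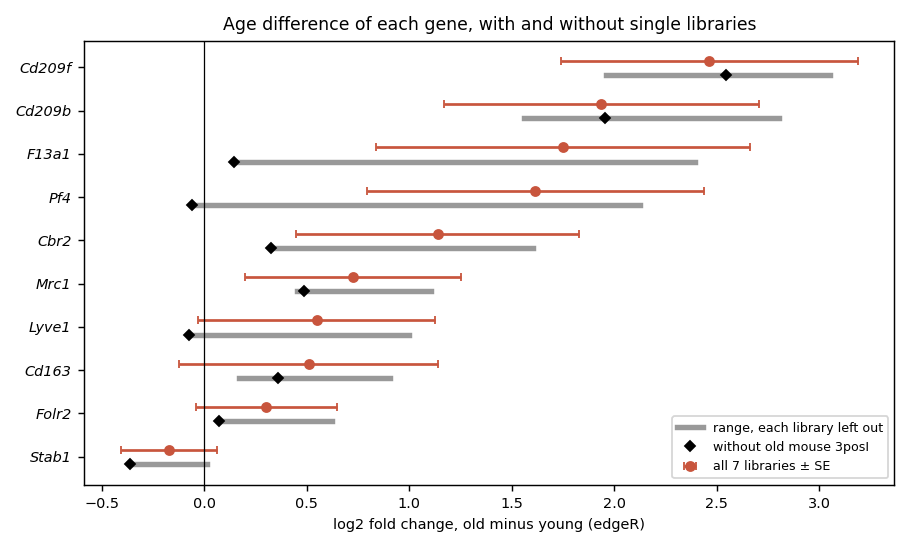
Log2 fold change of old against young (edgeR) of each of the 10 genes with all 7 libraries (red, ± SE), its range when each library is left out (grey) and its value without 3posI (black). Cd209f and Cd209b stay above 1.5 whichever library is left out, whereas F13a1, Pf4, Lyve1 and Folr2 lie near 0 without 3posI.

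Across the set, 1 old library decided much of the age difference and another went against it. 3posI was the highest or second highest library for all 10 genes and the highest for 5 (Lyve1, F13a1, Pf4, Cbr2 and Folr2), while 2posI was the highest for 4 (Mrc1, Cd163, Cd209b and Cd209f). The young library 29C was the lowest for 5 of the 10. The summed level of the 10 genes was 1220, 822, 1371 and 807 CPM in 14C, 18C, 23C and 29C, and 1051, 2072 and 811 CPM in 2posI, 3posI and 4posI, so 3posI alone lay above the young range. The ratio of the group means was 1.24 in old against young and 0.883 without 3posI. Without the most abundant gene Stab1 the ratio was 2.31, and it was 1.199 when 3posI was left out as well.

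Without 3posI, the old libraries were all above the young ones for 1 of the 10 genes, Cd209f, against 13.8% of all genes. Without 4posI this held for 6 of the 10 (Mrc1, Cd163, Cbr2, Folr2, Cd209b and Cd209f), against 15.3% of all genes, and 6 of the 10 (F13a1, Pf4, Cbr2, Folr2, Cd209b and Cd209f) were then higher at an unadjusted p under 0.05 in edgeR, against 11.6% of all genes. No gene of the set had an adjusted p under 0.05 in edgeR when any of the 7 libraries was left out. The labels give no reason to leave out either library.

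**Figure D4:**
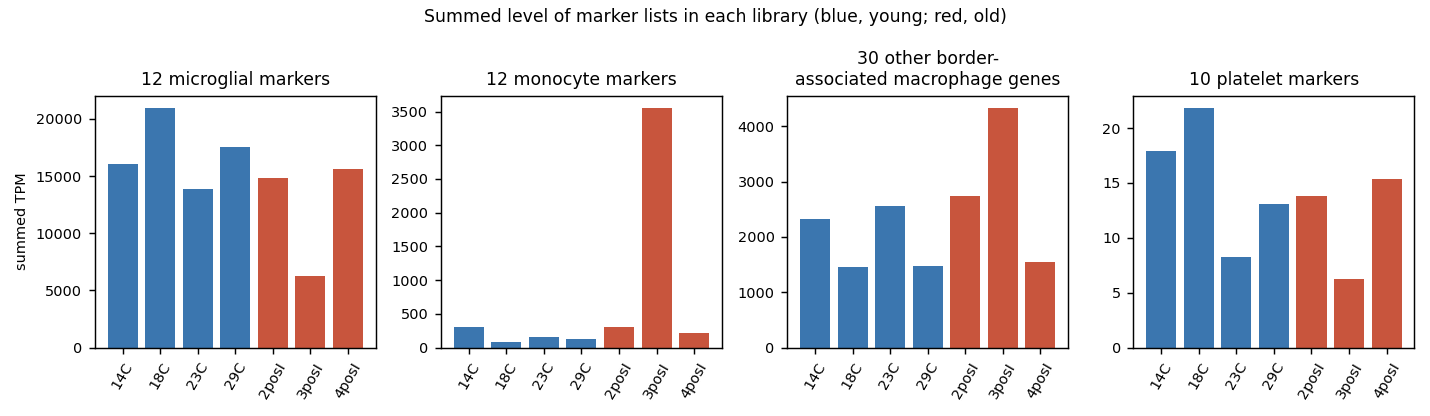
Summed TPM (bars from 0) of 4 marker lists in each young (blue) and old (red) library: 12 microglial markers, 12 monocyte markers, 30 other genes of border-associated macrophages and 10 platelet markers. 3posI has the lowest microglial and platelet sums and the highest sums of the monocyte and the border-associated macrophage lists.

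A wider list of 30 other genes of border-associated macrophages gave a like picture. Their fitted change was above 0 for 25 and below 0 for 5, with a median log2 fold change of 0.94, and 0 were called by edgeR while 13 had an unadjusted p under 0.05, 11 higher and 2 lower, against 18.9% of all genes. Limma-voom called 1 of the 30, Cd209a. Without 3posI 22 of the 30 were above 0 and the median was 0.30. Their summed level was 1453 to 2564 TPM in young and 1538 to 4335 TPM in old libraries, and 14 of the 30 were highest in 3posI. The 4 most abundant were Wfdc17, Gas6, Ms4a6c and Ms4a7, of which Gas6, a ligand of the TAM receptors, had a log2 fold change of -0.51 (adjusted p 0.213 in edgeR) and Ms4a7, a membrane protein of border-associated macrophages, one of 1.43 (adjusted p 0.236 in edgeR), which was 0.55 without 3posI. For 3 of the 30 (Cd209a, Cd209d and Cd209g) all old libraries lay above all young ones, a share near the 8.67% of all genes. Cd209d passed the filter through the old libraries alone. For 2 of the 30 (Gas6 and Colec12) all old libraries lay below all young ones, which held for 1592 of all 17559 genes. Of 19 genes for receptors, ligands and transcription factors that work with the set, 17 were tested, 7 lay above 0 and 0 were called by edgeR, with 5 at an unadjusted p under 0.05 against 18.9% of all genes. Among their most abundant genes, Csf1r, Cebpb and Lrp1 had log2 fold changes of -0.63, 0.09 and 0.44, which were -0.38, -0.60 and 0.27 without 3posI.

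Markers of other cells that a sort or a dissociation could leave moved as follows, and their part in the results was not tested. Endothelial markers summed to 56.1 to 126 TPM in young and 40.3 to 59.2 TPM in old libraries, and 1 of the 10, Slco1a4, was called by edgeR, at an adjusted p of 0.028 and a log2 fold change of -1.66. Fibroblast and mural markers summed to 19.4 to 117 TPM in young and 12.9 to 24.3 TPM in old libraries. In the same order, neutrophil markers summed to 4.10 to 343 and 91.5 to 281 TPM, and neural markers to 21.8 to 48.5 and 18.4 to 48.4 TPM. The 343 TPM of neutrophil markers came from 29C, and the next highest young sum was 50.8 TPM in 18C, below every old library. Of the tested markers, 7 of 10 fibroblast and mural, 1 of 8 neutrophil and 3 of 7 neural ones had a fitted change below 0. The fitted change of the lymphocyte markers was above 0 for 8 of the 9 tested, with a median log2 fold change of 3.32, and 3.49 over the 8 tested without 3posI. None was called by edgeR. An unadjusted p under 0.05 in edgeR was found for 6, against 18.9% of all genes in either direction. All old libraries lay above all young ones for 3 of these 6 (Nkg7, Trac and Cd8a), against 8.67% of all genes. The 6 had at most 7 reads in a young library and passed the filter through the old libraries alone. They had to differ, so these counts and the median are no support. Nkg7, Trac and Cd8a had at most 2.43 TPM in any library. The list summed to 17.6 to 24.6 TPM in young and 14.6 to 31.0 TPM in old libraries, mostly Cd79b with a mean of 20.4 TPM.

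The 5 other genes whose pattern over the 7 libraries was most like the mean profile of the 10 were Clec4n, Smap1, Pdlim5, Ube2q2 and Clec4a1, out of 8139 genes with a mean of at least 10 CPM. Likeness was the root mean square difference of standardised log2 CPM over the 7 libraries, in units of the SD of a gene across libraries, and it was 0.232 for Clec4n and 0.339 for Clec4a1. Clec4n, the lectin dectin-2, is also in the list of 30 and had 11.4, 8.03, 7.57 and 2.71 CPM in the young and 19.7, 57.1 and 7.51 CPM in the old libraries. With 7 libraries and so many candidates, a close match is a description of these libraries.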

How the data were processed

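Poly(A) RNA of sorted Bodipy+ microglia was amplified with a low-input Smart-seq2 protocol that keeps no strand and no molecular identifiers. Sex, day and sort come from the study's text, age group and animal code from the labels. The authors trimmed reads, mapped them to GRCm38 with STAR and estimated gene values with RSEM. The versions of STAR and RSEM were not stated. The submitters' processing notes name FastQC 0.11.5. Per the file headers, the deposited values are expected counts (not normalized), TPM, FPKM and effective lengths. The deposited TPM values served for levels between genes and for alternatives, and the deposited FPKM values were not used.

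Expected counts were rounded, of which 66.2% of values were already whole. Genes under or at 10 expected counts in all 7 libraries were dropped, as were those on X, Y and M. In R 4.3.3, edgeR 4.0.16 gave TMM factors (0.952 to 1.05) and the quasi-likelihood test with age as the only term, adjusted over all 17559 genes by the Benjamini-Hochberg method with a threshold of 0.05, and fold changes are its fitted values. The study's test, limma-voom (limma 3.58.1), and DESeq2 1.42.0 were alternatives, as were RLE and upper-quartile factors, other filters, kept sex chromosomes, an effective-length offset, TPM on a log2 scale with pseudocounts of 1 and 0.1, and leaving out each library. The script was tested on simulated data. Annotation came from GENCODE vM21, which holds 50462 of the 50686 identifiers, and promoter windows from RefSeq.

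The 10 genes and all lists were chosen with earlier results of these data known. Genes named are the 10, the Cd209 cluster, up to 4 of the most abundant and any called gene of the other lists, and the 5 genes nearest in pattern. Of these, 1 gene is not reported here. P-values measure the spread between these animals. Intervals of single counts were not computed, since reads were amplified and are not independent molecules.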

Additional observations from a re-analysis of the deposited data

How the results depend on the processing

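Of 170 values of the 10 genes under the alternatives planned for them, 163 kept their direction and their side of the threshold, 1 passed it (Cd209f with DESeq2) and 6 reversed. Stab1 turned to 0.13 with the effective-length offset, 0.0714 on log2(TPM + 1) and 0.0716 on log2(TPM + 0.1), and ranged from -0.36 to 0.0142 as each library was left out, the highest without 23C. Lyve1 ranged from -0.0750 to 1.00 and Pf4 from -0.0603 to 2.13 as each library was left out, both lowest without 3posI. Cd209f ranged from 1.96 to 3.05. Cd209b ranged from 1.56 to 2.80 as each library was left out, and it was 0.93 on log2(TPM + 1). The number of the 10 genes called was 0 under each alternative but DESeq2, which called 1.

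The number of genes called over the whole table was 141, and it was 1403 with DESeq2, 288 with no filter on low counts, 228 with at least 1 CPM in 3 libraries, 64 on log2(TPM + 1) and 71 on log2(TPM + 0.1). Of these, 748, 157, 148, 32 and 34 were higher in old mice, against 100 of the 141. Leaving out each library gave 1 to 159 calls: 1 without 14C, 18C or 2posI, 2 without 29C, 14 without 23C, 85 without 4posI and 159 without 3posI. The cause was not tested. The ratio of the summed level of the 10 genes was 1.24, and it was 2.31 without Stab1, 2.10 relative to the microglial markers, 1.46 on TPM and 0.883 to 1.48 as each library was left out, an alternative chosen after seeing the data. Leaving out 3posI as well, also chosen after seeing the data, took the 2.31 to 1.199 and turned the 2.10 to 0.886, and it took the 1.46 on TPM to 0.983. No paired analysis was possible because the groups share no replicate number. Depth limits Cd209b most, with 8 reads in each of 2 young libraries.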
